A study of Danio rerio with 12 samples.

Results

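Cell cycle and proliferation genes were followed in adult zebrafish muscle as a list of 36 gene symbols whose products act in DNA synthesis or in mitosis. The list was drawn up by gene function and no measured value entered its rule, but earlier results of these data were known when it was chosen. The symbols matched 38 of the 32520 gene IDs in each count table, because mcm6 and rrm2 are each the symbol of 2 IDs. Of the 38 IDs, 13 act in S phase and 25 in mitosis.

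Cells that divide copy their DNA in S phase and separate the copies in mitosis, and most genes of these steps are transcribed only while a cell is cycling. In S phase the MCM proteins unwind DNA, the clamp PCNA holds the polymerases on it, and ribonucleotide reductase and thymidylate synthase supply the nucleotides. In mitosis, cyclin-dependent kinase 1 with its cyclins starts chromosome condensation and spindle assembly, and kinases of the spindle checkpoint hold back separation until the chromosomes are attached. Myofibres are multinucleated and do not divide, so in muscle these transcripts are known from satellite cells, the muscle stem cells, and from cells between the fibres such as leukocytes, fibroblasts and endothelial cells.

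RNA was taken from dissected muscle of fish of strain AB at 20 months of age. The muscle was either extraocular muscle (EOM), which moves the eye, or trunk muscle. WT fish were of the same line that had served to make the desma-/-;desmb-/- double mutant, and the mutant fish carried that genotype, a change in both desmin genes that is not limited to muscle. The labels call the cell type myofibers, but whole pieces of muscle were taken. Desmin is the intermediate filament protein that links neighbouring myofibrils. The series text speaks of a desmin knock-down, whereas the sample labels give the double mutant, and the labels were followed here. There were 4 groups, namely WT EOM, mutant EOM, WT trunk and mutant trunk, each with 3 libraries. The labels do not say that the 3 libraries came from separate fish, nor whether EOM and trunk libraries came from the same fish, so the p-values measure the spread between these libraries, which may be technical.

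Libraries held 46.1 M to 74.1 M sense reads assigned to genes, so 3 reads in a library equalled between 0.0373 and 0.0754 CPM, the reads of a gene scaled to a common library total. Precision stated from read numbers covers counting error only. The symbol table gives both desmin copies the same symbol. The copy ENSDARG00000058656 stood at 559 to 685 CPM in the 6 WT libraries and at 17.7 to 49.3 CPM in the 6 mutant libraries, which matched the labels, while ENSDARG00000005221 had 3 to 14 reads in every library and checked nothing. Summed skeletal muscle markers were abundant everywhere, at 40300 to 56700 CPM in EOM and 116000 to 155000 CPM in trunk. Summed EOM markers were 384 to 507 CPM in EOM against 88.8 to 129 CPM in trunk, but their genes did not all follow the sum. Of 7 EOM markers tested, edgeR called 4 higher and 1 lower in EOM than in trunk for WT fish. For mutants it called 4 higher and 3 lower. The fhl2 copy ENSDARG00000003991 made up 26.4% of the sum, and the marker lists were chosen with earlier results of these data known. Retina and photoreceptor markers were present too, at 52.0 to 447 CPM in WT EOM and 73.8 to 209 CPM in mutant EOM, and at 11.4 to 90.1 CPM in WT trunk but 2.97 to 4.14 CPM in mutant trunk. All levels below are CPM after scaling of library totals (TMM), and levels are compared between groups for a gene or for the sum of a list. CPM is not corrected for transcript length, so the share of a gene in a sum is a share of reads only.

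Proliferation transcripts were scarce but measurable in all 4 groups, and they were lowest in WT trunk. The 25 mitosis genes summed to 17.6, 30.2 and 19.4 CPM in the 3 WT EOM libraries and to 29.6, 32.6 and 25.5 CPM in the mutant EOM libraries. In WT trunk the sums were 7.74, 7.46 and 20.6 CPM, and in mutant trunk 18.1, 17.2 and 23.7 CPM. Replicate 3 of WT trunk stood above the other 2 WT trunk libraries and above 2 of the 3 mutant trunk libraries, and replicate 2 of WT EOM stood above the other 2 WT EOM libraries and 2 of the 3 mutant EOM libraries. In bulk tissue, fewer cycling cells and less RNA per cycling cell cannot be told apart. Among the 36 IDs that passed the filter on low counts over all 12 libraries, the group mean was highest in mutant EOM for 28, and lowest in WT trunk for 31. The order WT trunk, mutant trunk, WT EOM, mutant EOM, from low to high, was that of 22 of the 36. The shares of all genes with these orders were not computed, so the counts describe the members and do not set them apart.

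**Figure D1:**
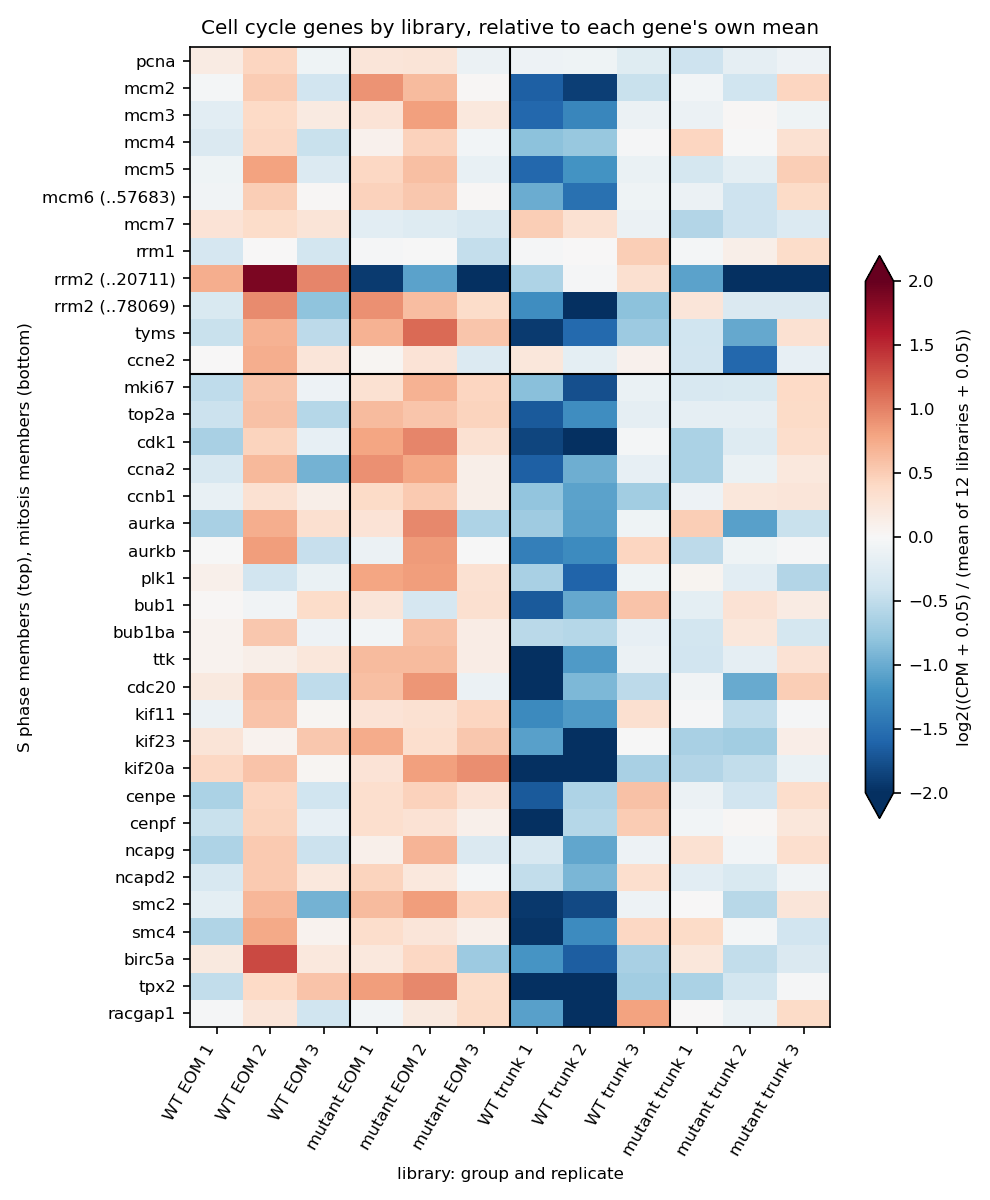
Level of each of the 36 detected cell cycle genes (rows) in each of the 12 libraries (columns), as log2 of CPM plus 0.05 over the gene's own mean over the 12 libraries plus 0.05, with S phase genes above the horizontal line and mitosis genes below it. WT trunk replicates 1 and 2 are low in most rows, while WT trunk replicate 3 and WT EOM replicate 2 are higher than the other libraries of their groups in 33 and 31 rows.

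The same libraries stood out gene after gene. WT trunk replicate 3 was the highest of its 3 libraries for 33 of the 36 genes, including all 24 mitosis genes, and over the 36 its median ratio to the mean of the other 2 libraries was 2.31. WT EOM replicate 2 was the highest of its group for 31 of 36, including all 12 S phase genes, with a median ratio of 1.66. Across all 19687 genes tested, WT trunk replicate 3 was the highest library of its group for 34.1% and WT EOM replicate 2 for 38.0%. Other summed markers in these libraries are given for reference: WT EOM replicate 2 had erythroid markers at 2310 CPM against 1520 and 1060 CPM in replicates 1 and 3, and satellite cell and myoblast markers at 166 CPM, the highest of its group. WT trunk replicate 3 had fibroblast and tenocyte markers at 341 CPM against 227 and 239 CPM in replicates 1 and 2, and leukocyte markers at 72.8 against 77.4 and 74.0 CPM. The part of these markers in the high values of the cell cycle genes was not tested.

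Whether proliferation differs with the desmin genotype in EOM was asked by comparing mutant with WT EOM. One copy of rrm2 was lower in the mutants, and no other member passed the test. Of the 36 members tested, 30 had a higher fitted level in the mutants, with a median log2 fold change of 0.26 where the median of all 18980 genes tested was −0.02. The edgeR quasi-likelihood test called 0 members higher, where 2.15% of all genes were called higher, and 1 lower, where 1.4% were. At an unadjusted p under 0.05 there were 2 higher and 2 lower members, against 9.91% and 8.61% of all genes, and DESeq2 called 0 higher and 2 lower, against 3.92% and 3.24%.

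The called gene was the rrm2 copy ENSDARG00000020711, which encodes a form of the small subunit of ribonucleotide reductase. Its level was 0.881, 2.03 and 1.06 CPM for WT EOM (58, 160 and 71 reads) and 0.0994, 0.217 and 0.0415 CPM in mutant EOM (8, 17 and 3 reads). The groups did not overlap. It fell by 3.45 on the log2 scale (SE 0.56, n = 3 per group, edgeR adjusted p = 0.0195). Over 14 alternative analyses the adjusted p ran from 6.23e-08 (DESeq2) to 0.098, and the call was lost in the fit without mutant EOM replicate 1, where the log2 fold change was −3.32 and 0.283% of all genes were called lower. The other copy, ENSDARG00000078069, was at 1.47, 3.57 and 1.03 CPM for WT EOM and at 3.48, 2.83 and 2.37 CPM in mutant EOM. These groups overlapped through WT replicate 2, and the log2 fold change was 0.51 (SE 0.42, edgeR adjusted p = 0.572). Multimapping reads were tallied apart from the genes, so reads that matched both copies equally were counted for neither copy. How many reads of each copy were left out in this way was not measured.

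The other S phase genes were spread around no change in EOM. The sliding clamp gene pcna stood at 35.6, 43.0 and 30.1 CPM for WT EOM and 37.9, 38.1 and 29.4 CPM in mutant EOM, with overlapping groups and a log2 fold change of −0.04 (SE 0.16, edgeR adjusted p = 0.921). The helicase gene mcm2 was at 2.57, 3.75 and 2.01 CPM for WT EOM and 4.95, 4.13 and 2.67 CPM in mutants, again overlapping (0.50, SE 0.29, edgeR adjusted p = 0.413). For the other helicase subunits, mcm3, mcm4, mcm5 and the mcm6 copy ENSDARG00000057683, log2 fold changes lay between 0.10 and 0.34. The sixth subunit gene, mcm7, went the other way: it was at 4.21, 4.46 and 4.15 CPM for WT EOM and 2.98, 2.88 and 2.76 CPM in mutant EOM. Its groups did not overlap, with a log2 fold change of −0.57 (SE 0.14) that missed the threshold in edgeR (adjusted p = 0.0734) and passed it in DESeq2 (adjusted p = 0.0221). Apart from the named genes that the selection rule fixed, mcm7 is given because its values were seen to differ from those of its partners.

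Thymidylate synthase, tyms, had 0.653, 1.49 and 0.612 CPM for WT EOM and 1.49, 2.04 and 1.36 CPM in mutant EOM. WT replicate 2 reached into the mutant range, and the log2 fold change of 0.82 (SE 0.37) did not pass (edgeR adjusted p = 0.285). The large reductase subunit gene rrm1 and the G1/S cyclin gene ccne2 had log2 fold changes of 0.07 and −0.36. The remaining mcm6 copy, ENSDARG00000033231, was not tested: it had 0 to 5 reads per library in EOM and 0 in every trunk library, which allows a level of up to 0.0754 CPM.

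None of the 24 mitosis genes tested in EOM passed the threshold, though 22 had a positive fold change (median 0.29, range −0.69 to 0.85). The largest was that of the mitotic kinase plk1, at 0.607, 0.419 and 0.507 CPM for WT EOM and 1.01, 1.04 and 0.706 CPM in mutants. Among the 36 members tested it was the only one with all mutant EOM libraries above all WT EOM libraries, a separation that 13.3% of all genes tested showed in that direction and 11.6% in the other, where 2 members had it. Its log2 fold change was 0.85 (SE 0.29, edgeR adjusted p = 0.168).

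The kinase gene cdk1, which drives entry into mitosis, was at 0.623, 1.40 and 0.895 CPM for WT EOM and 1.79, 2.03 and 1.26 CPM for mutant EOM (log2 fold change 0.80, SE 0.33, edgeR adjusted p = 0.244). Its partner ccnb1, encoding a B-type cyclin, was at 0.942, 1.32 and 1.15 CPM against 1.39, 1.53 and 1.15 CPM (0.26, SE 0.24, edgeR adjusted p = 0.627). In both genes WT replicate 2 lay inside the mutant range. The same held for top2a, the topoisomerase that untangles replicated chromosomes, at 1.84, 3.79 and 1.66 CPM in WT and 3.89, 3.70 and 3.42 CPM in mutants (0.60, SE 0.30, edgeR adjusted p = 0.347).

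The chromosome-coating protein Ki-67, a common marker of cycling cells, is encoded by mki67, which was at 1.69, 3.58 and 2.25 CPM for WT EOM and 2.99, 3.96 and 3.27 CPM in mutant EOM. The groups overlapped (log2 fold change 0.44, SE 0.28, edgeR adjusted p = 0.448). Log2 fold changes of the spindle genes kif20a and tpx2, of which kif20a encodes a kinesin of cell division and tpx2 a spindle assembly factor, were 0.37 and 0.53. The survivin gene birc5a had the lowest value of the mitosis genes, −0.69 (SE 0.46). The cyclin gene ccnb2 was too low to be tested, with 4 reads in each WT EOM library, 10, 9 and 9 reads in the mutant EOM libraries, which were thus all higher, and 0 to 3 reads in the trunk libraries.

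With WT EOM replicate 2 left out, 3 members passed as higher in the mutants, where 2.06% of all genes did. They were top2a (log2 fold change 1.07, edgeR adjusted p = 0.0228), the rrm2 copy ENSDARG00000078069 (1.21, adjusted p = 0.045) and tyms (1.37, adjusted p = 0.0435). Over their alternatives the adjusted p reached 0.6, 0.802 and 0.591. The median over the members was then 0.51, and no other fit that left out 1 EOM library called a member higher.

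**Figure D2:**
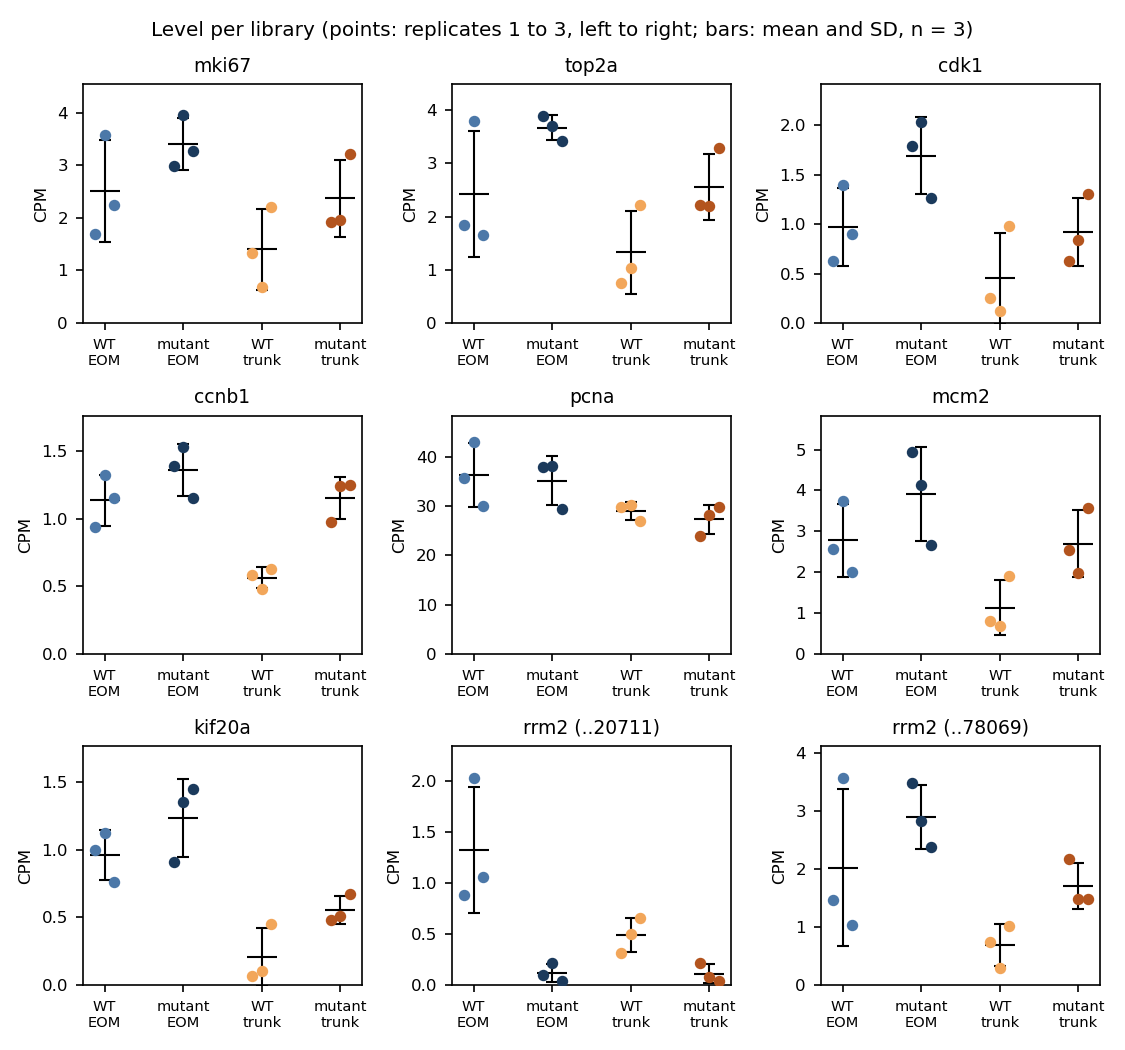
Level in CPM of 9 cell cycle genes in each library (points, with replicates 1 to 3 from left to right) with the group mean and SD (n = 3, bars cut at 0). The rrm2 copy ENSDARG00000020711 is at 0.0415 to 0.217 CPM in both mutant groups and above that in both WT groups, pcna is level within each muscle, and for mki67, top2a and cdk1 the third WT trunk library reaches the mutant trunk libraries.

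In trunk the same question was asked with mutant against WT trunk. Most proliferation genes had a higher fitted level in the mutants, and none passed the threshold with all 6 libraries. Of 35 members tested, 31 had a positive log2 fold change, among them all 23 mitosis genes, and the median was 0.73 where that of all 17342 genes tested was −0.01. The edgeR test called 0 members in either direction, where 4.76% of all genes were called higher and 3.63% lower. At an unadjusted p under 0.05 there were 11 higher and 2 lower members, against 12.7% and 12.2% of all genes. DESeq2 called 2 higher and 1 lower, against 5.28% and 4.98%. The groups did not overlap for 8 members higher in mutants and 2 lower, a pattern that 15.0% and 15.2% of all genes had.

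Among the S phase genes, mcm2 was at 0.812, 0.678 and 1.91 CPM in WT trunk and 2.54, 1.98 and 3.58 CPM in mutant trunk. The mutant libraries were all higher, the nearest pair being mutant replicate 2 and WT replicate 3, and the log2 fold change of 1.26 (SE 0.40) missed the threshold in edgeR (adjusted p = 0.0878) and passed it in DESeq2 (adjusted p = 0.0255). The other MCM genes mcm3, mcm4, mcm5 and the mcm6 copy ENSDARG00000057683 had log2 fold changes of 0.76 to 0.90. By contrast, mcm7 was again lower, at 4.89, 4.27 and 3.19 CPM in WT and 2.28, 2.57 and 2.84 CPM in mutants, without overlap (−0.66, SE 0.20, edgeR adjusted p = 0.0668). As in EOM, 5 helicase subunits thus had positive fitted values and mcm7 a negative one.

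The rrm2 copies also differed from each other in trunk. ENSDARG00000078069 was at 0.744, 0.301 and 1.01 CPM in WT trunk and 2.17, 1.48 and 1.48 CPM in mutants, with no overlap (log2 fold change 1.33, SE 0.39, edgeR adjusted p = 0.0632, DESeq2 adjusted p = 0.0269). ENSDARG00000020711 was at 0.316, 0.502 and 0.654 CPM in WT and 0.217, 0.0760 and 0.0418 CPM in mutants, 14 to 26 reads against 2 to 10. Here too the groups did not overlap (−2.10, SE 0.61, edgeR adjusted p = 0.0579, DESeq2 adjusted p = 0.048). Over 13 alternatives the adjusted p of this copy ran from 0.0394 to 0.2.

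The clamp gene pcna did not follow the helicase genes, with 29.8, 30.2 and 27.0 CPM in WT trunk and 24.0, 28.1 and 29.8 CPM in mutant trunk (log2 fold change −0.07, SE 0.13, edgeR adjusted p = 0.783). For tyms the values were 0.203, 0.276 and 0.528 CPM in WT and 0.673, 0.418 and 1.13 CPM in mutants, overlapping through WT replicate 3 (1.15, SE 0.50, edgeR adjusted p = 0.18). The log2 fold changes of rrm1 and ccne2 were 0.00 and −0.70.

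For most mitosis genes in trunk, WT replicate 3 lay near, inside or above the mutant range. The largest fold change was that of kif20a, at 0.0677, 0.100 and 0.452 CPM in WT trunk (3, 4 and 18 reads) and 0.478, 0.513 and 0.669 CPM in mutant trunk (22, 27 and 32 reads). No WT library reached the mutant range, but WT replicate 3 came close to it, and the log2 fold change of 1.43 (SE 0.62) did not pass (edgeR adjusted p = 0.181). The spindle factor gene tpx2 had 0.226, 0.226 and 0.729 CPM in WT and 0.760, 0.931 and 1.19 CPM in mutants (1.30, SE 0.47, edgeR adjusted p = 0.118), also just without overlap.

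The B-type cyclin gene ccnb1 was the mitosis gene nearest to the threshold, at 0.586, 0.477 and 0.628 CPM in WT trunk and 0.977, 1.24 and 1.25 CPM in mutant trunk. Its WT libraries lay close together, replicate 3 included, and well below the mutant ones (1.05, SE 0.29, edgeR adjusted p = 0.0525). Its kinase cdk1 was at 0.248, 0.126 and 0.980 CPM in WT and 0.630, 0.836 and 1.30 CPM in mutants, where WT replicate 3 exceeded 2 of the 3 mutant libraries (1.04, SE 0.65, edgeR adjusted p = 0.365).

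WT replicate 3 also met the mutant range for mki67 and top2a. Ki-67 transcripts were at 1.33, 0.678 and 2.21 CPM in WT trunk and 1.93, 1.96 and 3.22 CPM in mutant trunk (0.76, SE 0.40, edgeR adjusted p = 0.281). The topoisomerase gene top2a was at 0.744, 1.03 and 2.21 CPM in WT and 2.21, 2.19 and 3.28 CPM in mutants (0.96, SE 0.38, edgeR adjusted p = 0.159). For plk1 the values were 0.338, 0.151 and 0.528 CPM against 0.586, 0.475 and 0.356 CPM (0.49, SE 0.49, edgeR adjusted p = 0.585), so the gene that separated the EOM groups did not separate the trunk groups.

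The other mitosis genes tested in trunk also had positive fitted values, among them the cyclin gene ccna2 with a log2 fold change of 0.73. Fitted log2 fold changes were 1.03 and 0.68 for the condensin genes smc2 and smc4, and 0.72 and 0.10 for ncapg and ncapd2 of the same complex. Genes of the spindle checkpoint had 0.94 (ttk), 0.63 (bub1) and 0.33 (bub1ba), and cdc20, whose product is held back by that checkpoint, had 1.06. The motor and cytokinesis genes kif11, kif23 and racgap1 had 0.37, 0.65 and 0.44, the kinetochore genes cenpe and cenpf 0.31 and 0.51, and birc5a and aurkb of the chromosomal passenger complex 1.14 and 0.34. None of these was called. For kif11, racgap1, cenpe, cenpf, ncapd2, smc4, bub1 and aurkb, WT trunk replicate 3 stood above every mutant trunk library. In that library kif11 was at 1.26 CPM and racgap1 at 1.06 CPM, against at most 0.983 and 0.774 CPM in mutant trunk. In this comparison aurka, with 3 to 15 reads per trunk library, was not tested.

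**Figure D3:**
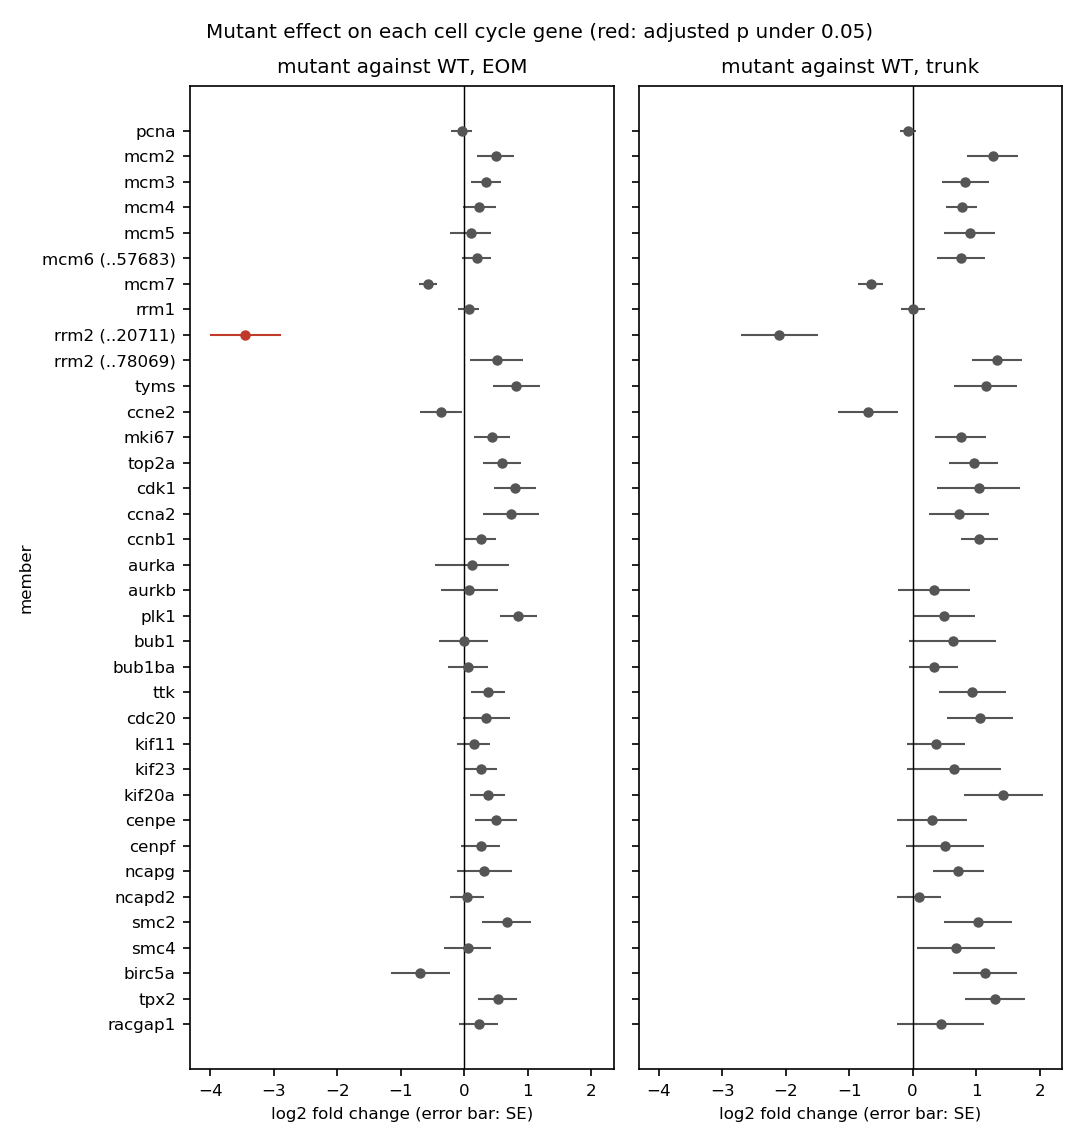
Log2 fold change of each cell cycle gene, mutant against WT, in EOM (left) and trunk (right), with its SE from edgeR (3 libraries per group). Most points lie above 0 in both muscles, with medians of 0.26 and 0.73, while pcna, mcm7, ccne2 and the rrm2 copy ENSDARG00000020711 lie below 0 in both, and that copy in EOM is the only point past the threshold (red).

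The count of members called in trunk changed most with WT replicate 3. As this library was the highest of its group for 33 of 36 genes, leaving it out was bound to raise most fold changes. Without that library, 15 members passed as higher in the mutants and 1 as lower, where 6.2% and 5.31% of all genes were called, and the median over the 35 members was 1.46. Higher were 6 S phase genes (mcm2, mcm3, mcm4, mcm5, the mcm6 copy ENSDARG00000057683 and the rrm2 copy ENSDARG00000078069) and 9 mitosis genes (mki67, top2a, cdk1, ccnb1, smc2, smc4, kif20a, tpx2 and racgap1), and mcm7 was lower. Each of the other 5 libraries could be left out with 0 members called and a median between 0.46 and 0.82. In those fits edgeR called higher 2.19% and 3.27% of all genes without WT trunk replicate 1 and 2, and 1.82%, 1.83% and 3.42% without mutant trunk replicate 1, 2 and 3. The library was singled out after its values were seen, and nothing in the labels sets it apart. Of the 12 libraries it had the fewest sense gene reads (46.1 M) and the largest share of unmapped reads (14.3%). Whether this bears on its values was not tested.

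In the same fit the log2 fold change of mcm2 was 1.88 (edgeR adjusted p = 0.00452), of top2a 1.56 (adjusted p = 0.00776), of cdk1 2.30 (adjusted p = 0.0167) and of mki67 1.26 (adjusted p = 0.0431). Over all alternatives their adjusted p reached 0.235, 0.345, 0.623 and 0.551. The labels do not say whether the replicate numbers pair the libraries. The fit with the replicate number as a block called 3 members higher, namely top2a, mcm2 and mcm5, where 3.99% of all genes were called higher.

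**Figure D4:**
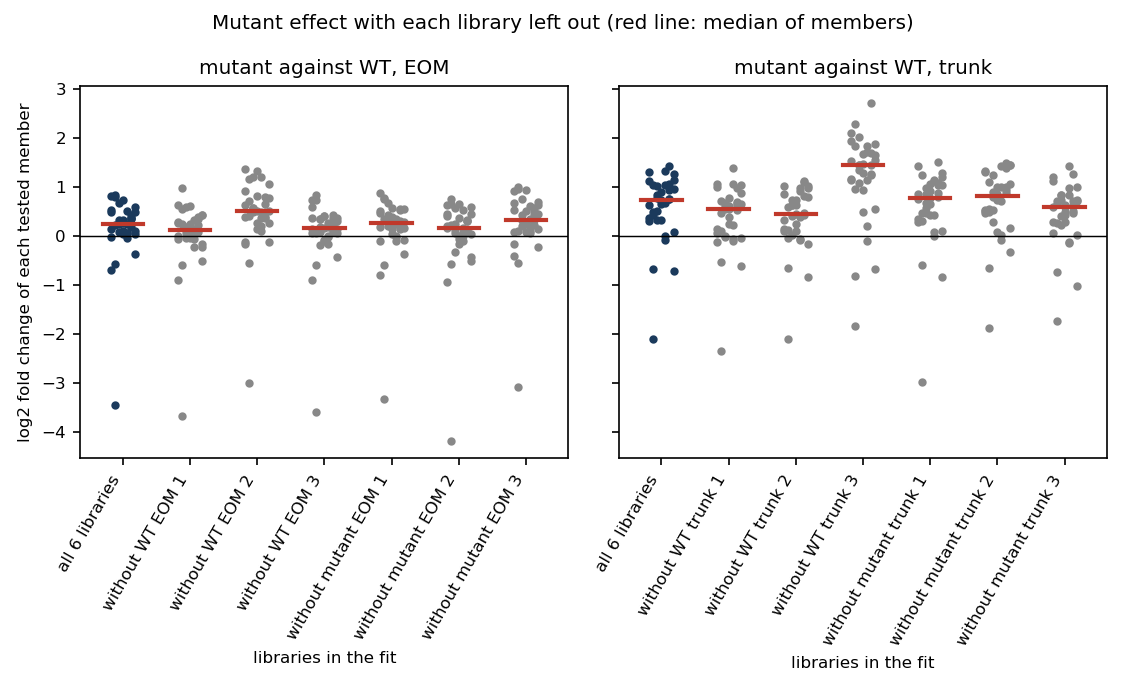
Log2 fold change of each tested cell cycle gene, mutant against WT (points), in fits with all 6 libraries (dark) or with 1 library left out, for EOM (left) and trunk (right), with the median in red. The trunk median moves from 0.73 to 1.46 when WT trunk replicate 3 is left out and stays between 0.46 and 0.82 in the other fits, and the EOM median runs from 0.14 to 0.51.

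Whether the mutant effect differed between the muscles was tested as an interaction over all 12 libraries. No member passed: edgeR called 0 of 36, where 0.0914% of all 19687 genes were called, DESeq2 called 0, and at an unadjusted p under 0.05 there were 0 members with a larger effect in EOM and 2 with a smaller one, against 5.06% and 4.74% of all genes. These 2 were ccnb1 (difference EOM minus trunk of −0.78 on the log2 scale, SE 0.35, edgeR adjusted p = 0.499) and birc5a (−1.81, SE 0.70, edgeR adjusted p = 0.438). The survivin gene birc5a was at 0.486, 1.13 and 0.492 CPM for WT EOM, 0.497, 0.573 and 0.235 CPM for mutant EOM, 0.158, 0.100 and 0.251 CPM in WT trunk and 0.499, 0.285 and 0.335 CPM in mutant trunk. The differences of mki67 (−0.31, SE 0.52), top2a (−0.36, SE 0.53), cdk1 (−0.24, SE 0.75) and mcm2 (−0.76, SE 0.53) did not pass either (edgeR adjusted p = 0.663 to 0.932).

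The fitted difference was below 0 for 29 of the 36, with a median of −0.36 where that of all genes was −0.01. That median was 0.01 without WT EOM replicate 2, −1.06 without WT trunk replicate 3 and −0.76 without both. A larger effect in either muscle was therefore not shown.

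The muscles themselves were compared within each genotype, which uses the same libraries as the mutant comparisons. In WT fish, nearly all proliferation genes had a higher fitted level in EOM than in trunk. Of 35 members tested, 34 had a positive log2 fold change (EOM minus trunk), the exception being rrm1 at −0.37, with a median of 0.86 where that of all 18430 genes was 0.06. The edgeR test called 9 higher in EOM and 0 lower. Because the muscles differ widely, 25.6% of all genes were called higher in EOM and 23.2% lower, and the share of members called higher was close to that background. DESeq2 called 12 members higher, against 21.4% of all genes.

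The called genes were mcm2, tyms and both rrm2 copies of the S phase group, and ccnb1, cdc20, kif20a, birc5a and tpx2 of the mitosis group. The division kinesin kif20a averaged 0.961 ± 0.182 CPM over WT EOM libraries and 0.207 ± 0.213 CPM over those of WT trunk (SD, n = 3), with no overlap (log2 fold change 2.25, SE 0.62, edgeR adjusted p = 0.0152). Values of birc5a were 0.703 ± 0.371 and 0.170 ± 0.0762 CPM (2.07, SE 0.53, edgeR adjusted p = 0.0115). Those of tpx2 were 1.43 ± 0.511 and 0.393 ± 0.291 CPM (SD, n = 3; log2 fold change 1.89, SE 0.52, edgeR adjusted p = 0.0157).

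The remaining genes of the 5 largest called differences were a copy of rrm2 and tyms. The rrm2 copy ENSDARG00000078069 averaged 2.02 ± 1.36 CPM over WT EOM libraries and 0.684 ± 0.356 CPM over those of WT trunk (1.59, SE 0.55, edgeR adjusted p = 0.0395), and tyms 0.917 ± 0.494 and 0.336 ± 0.170 CPM (1.49, SE 0.51, edgeR adjusted p = 0.0387). All 5 genes had no overlap between the muscles, as was so for 13 of the 35 members tested. The share of all genes without overlap between the muscles was not computed, so this separation is a description only. For the rrm2 copy ENSDARG00000078069 it was narrow, with the lowest WT EOM library at 1.03 CPM and the highest WT trunk library at 1.01 CPM. The count of called members ran from 1 to 23 when 1 library was left out: it was 3 without WT EOM replicate 2, 2 without WT trunk replicate 1, 1 without WT trunk replicate 2 and 23 without WT trunk replicate 3, where 22.1%, 19.5%, 19.0% and 22.0% of all genes were called higher.

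In mutant fish, 33 of 35 members tested had a positive log2 fold change (median 0.54, all 18698 genes 0.04). The edgeR test called 12 members higher in EOM and 0 lower, where 27.4% of all genes were called higher and 25.7% lower, and DESeq2 called 10 higher, against 22.0%. They were pcna, mcm3, the rrm2 copy ENSDARG00000078069, tyms, top2a, cdk1, ccna2, plk1, kif23, kif20a, smc2 and tpx2. The largest differences were in kif20a, at 1.24 ± 0.290 CPM in mutant EOM and 0.553 CPM on average in mutant trunk (1.17, SE 0.30, edgeR adjusted p = 0.0066), and in tyms, at 1.63 ± 0.361 and 0.740 CPM (1.15, SE 0.35, edgeR adjusted p = 0.0157).

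Next came tpx2 (1.11, SE 0.26, edgeR adjusted p = 0.00399), the cytokinesis kinesin gene kif23 (0.97, SE 0.33, edgeR adjusted p = 0.0266) and plk1 (0.97, SE 0.32, edgeR adjusted p = 0.0243). Leaving out 1 library gave 2 to 13 called members: 3 without mutant EOM replicate 1, 4 without mutant EOM replicate 2, 5 without mutant trunk replicate 1 and 2 without mutant trunk replicate 2, against 23.3%, 22.7%, 24.8% and 23.8% of all genes. These tissue differences depend on scaling. Without scaling factors the median of all genes moved from 0.06 to 0.66 in WT fish and from 0.04 to 0.79 in mutants, and the medians of the members moved along, to 1.41 and 1.27, so that they lay above those of all genes by a similar amount as before.

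Other genes of the cell cycle were taken from 4 lists, with at most 2 called by edgeR per list and muscle. Of 47 other mitosis genes tested in EOM, 2 rose in the mutants and 0 fell by edgeR, where 2.15% and 1.4% of all genes did, and 32 had a positive fold change (median 0.15). At an unadjusted p under 0.05 there were 7 higher and 1 lower, against 9.91% and 8.61% of all genes, and DESeq2 called 3 higher and 1 lower, against 3.92% and 3.24%. The 2 genes were ect2, an activator of the contractile ring, and aspm, a protein of the spindle poles. The level of ect2 was 1.23, 1.09 and 1.16 CPM for WT EOM and 2.80, 1.96 and 2.58 CPM in mutant EOM, with all mutant libraries higher (log2 fold change 1.08, SE 0.21, edgeR adjusted p = 0.0347). For aspm the values were 0.137, 0.254 and 0.209 CPM against 0.621, 0.918 and 0.568 CPM, again without overlap (1.80, SE 0.38, edgeR adjusted p = 0.0408). Both calls were lost in most fits that left out 1 EOM library, 6 of 6 for ect2 and 5 of 6 for aspm, with adjusted p up to 0.15 and 0.175.

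In trunk, edgeR called 0 of 36 other mitosis genes higher and 1 lower, while 30 had a positive fold change (median 0.45), where 4.76% and 3.63% of all genes were called. At an unadjusted p under 0.05 there were 7 higher and 3 lower, against 12.7% and 12.2% of all genes, and DESeq2 called 0 and 2, against 5.28% and 4.98%. The gene that fell was bub1bb, a spindle checkpoint gene and paralog of bub1ba, at 0.925, 0.703 and 1.43 CPM in WT trunk and 0.239, 0.133 and 0.397 CPM in mutant trunk (log2 fold change −1.98, SE 0.46, edgeR adjusted p = 0.0277). In EOM it stood at 0.775, 1.54 and 0.806 CPM in WT and 0.360, 0.535 and 0.235 CPM in mutants, also without overlap (−1.46, SE 0.41, edgeR adjusted p = 0.0977, DESeq2 adjusted p = 0.0202). In trunk the gene no longer passed without WT trunk replicate 1 or 3 and without mutant trunk replicate 1 or 2 (edgeR adjusted p up to 0.104).

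Of the other replication genes, 0 of 49 were called in EOM by edgeR or DESeq2 (3 higher and 0 lower at an unadjusted p under 0.05, against 9.91% and 8.61% of all genes). In trunk 1 of 45 was called, where 4.76% of all genes were called higher: rnaseh2a, which encodes a nuclease that removes RNA from RNA-DNA hybrids, rose from 3.25, 3.06 and 4.27 CPM to 6.47, 5.34 and 6.23 CPM (log2 fold change 0.79, SE 0.19, edgeR adjusted p = 0.0291). Of the G1 cyclins, kinases and E2F-RB genes, 0 of 28 were called in EOM by edgeR, by DESeq2 or at an unadjusted p under 0.05, and 2 of 25 rose in trunk, against the same 4.76%. The G1 kinase gene cdk4 rose there from 3.50, 3.01 and 3.22 CPM to 5.80, 5.76 and 4.35 CPM (0.73, SE 0.18, edgeR adjusted p = 0.0329). The E2F partner gene tfdp2 rose from 8.64, 11.3 and 7.92 CPM to 15.5, 13.8 and 13.8 CPM (0.65, SE 0.15, edgeR adjusted p = 0.0289). In all 3 genes every mutant trunk library was above every WT trunk library. In fits that left out 1 library the adjusted p of rnaseh2a, cdk4 and tfdp2 reached 0.118, 0.136 and 0.123. In EOM, cdk4 was at 5.88, 6.25 and 5.83 CPM in WT and 5.46, 5.31 and 4.64 CPM in mutants. The mutant libraries were all lower there, as for 11.6% of all genes (−0.22, SE 0.13, edgeR adjusted p = 0.428). Its difference EOM minus trunk was −0.93 (SE 0.22), which missed the threshold in edgeR (adjusted p = 0.166) and passed it in DESeq2 (adjusted p = 0.012). At an unadjusted p under 0.05 in trunk, 8 of the 45 replication genes were higher and 0 lower. Of the 25 G1 cyclin, kinase and E2F-RB genes, 5 were higher and 0 lower, against 12.7% and 12.2% of all genes. Positive fold changes in trunk were found for 39 of the 45 and 16 of the 25.

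Cell cycle inhibitor and p53 target genes had 0 of 26 called in EOM and 0 of 23 in trunk by edgeR. At an unadjusted p under 0.05, 2 were higher and 2 lower in EOM, and 3 were higher and 1 lower in trunk, shares near or below those of all genes (9.91% and 8.61% in EOM, 12.7% and 12.2% in trunk). DESeq2 called 0 higher and 1 lower in EOM and 0 in trunk. The medians were −0.06 and 0.18. The other 3 lists had medians of −0.04 to 0.15 in EOM and 0.13 to 0.45 in trunk, against 0.26 and 0.73 for the 36 symbols.

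Markers of cells that can divide in muscle moved with genotype in part. For reference, edgeR called 2.15% of all genes higher and 1.4% lower in EOM, and 4.76% higher and 3.63% lower in trunk. Leukocyte markers rose in the mutants, with 6 of 10 called higher in EOM and 9 of 10 in trunk, and summed to 141 to 156 CPM in WT EOM, 213 to 248 in mutant EOM, 72.8 to 77.4 in WT trunk and 131 to 163 in mutant trunk. Of the lymphocyte markers, 2 of 12 were called higher in EOM, and 2 of 8 higher and 1 lower in trunk, with 4 of the 12 negative in EOM. The antigen presentation gene cd74a made up 96.5% of their sum, and without it the sum was 7.41 to 17.2 CPM in WT EOM, 13.1 to 16.4 in mutant EOM, 9.48 to 15.9 in WT trunk and 9.66 to 12.7 in mutant trunk, with overlap in both muscles. Fibroblast and tenocyte markers summed to 730 to 792 CPM in WT EOM, 892 to 1110 in mutant EOM, 227 to 341 in WT trunk and 409 to 484 in mutant trunk, with 1 of 9 called higher in EOM and 3 of 9 in trunk. The called genes included the leukocyte genes spi1 (log2 fold change 0.91 in EOM and 1.19 in trunk) and ptprc (0.68 and 0.96), the lymphocyte kinase gene zap70 (1.40 and 1.65), cd74a (0.67 and 1.28), and, in trunk, the matrix gene dcn (0.77). The lymphocyte gene that fell in trunk was ighm, the heavy chain of immunoglobulin M (−2.39, SE 0.47, edgeR adjusted p = 0.0235; −0.94 in EOM, adjusted p = 0.195). For the leukocyte and the fibroblast sums every mutant library was above every WT library of its muscle, also without the most abundant gene of each list, marco and dcn.

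Satellite cell and myoblast markers did not show that order. Their sums averaged 131 ± 30.8 CPM (SD, n = 3) over WT EOM libraries, where those of mutant EOM had 122, 93.3 and 114 CPM. In WT trunk they averaged 87.7 ± 12.3 CPM (SD, n = 3), and mutant trunk libraries had 62.6, 99.3 and 74.6 CPM. The groups overlapped within each muscle. Of 8 tested in EOM 0 were called by edgeR or DESeq2 (1 higher at an unadjusted p under 0.05, against 9.91% of all genes). Of 10 tested in trunk 1 rose, where 4.76% of all genes were called higher. It was mymk, which encodes a protein of myoblast fusion, at 0.113, 0.176 and 0.101 CPM in WT trunk and 0.543, 0.494 and 0.627 CPM in mutant trunk (log2 fold change 2.10, SE 0.45, edgeR adjusted p = 0.0179). Leaving out WT trunk replicate 1 or any of the mutant trunk libraries ended that call, with adjusted p up to 0.0752.

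Of other dividing cell types, germ cell markers summed to at most 1.56 CPM, with ddx4, dazl and dnd1 at no more than 3 reads in every library. Retinal progenitor markers summed to 2.24 to 4.65 CPM in WT EOM, 1.64 to 2.03 in mutant EOM, 1.28 to 2.57 in WT trunk and 0.114 to 0.282 in mutant trunk. Of them, the pax6 copy ENSDARG00000045936 was called lower in both muscles (edgeR adjusted p = 0.0399 in EOM and 0.000919 in trunk), at 1.92, 1.28 and 0.830 CPM in WT trunk with 0 reads in every mutant trunk library. Of 18 retina and photoreceptor IDs, 7 were tested in trunk, all with a negative fold change. Of these 1 was called, where 3.63% of all genes were called lower. Genes near 0 in mutant trunk can pass the filter on low counts only through WT trunk, so a negative sign there was largely fixed in advance. The same holds for the pax6 copy, as 1 of 11 retinal progenitor IDs was tested in trunk. In EOM, 16 of 17 tested retina and photoreceptor markers were negative and 0 were called. Their sums overlapped there, at 52.0 to 447 CPM in WT and 73.8 to 209 CPM in mutants. In WT trunk the sums were 90.1, 11.5 and 11.4 CPM, against 2.97 to 4.14 CPM in mutant trunk. Retina and photoreceptor sums thus separated the genotypes in trunk and not in EOM. Endothelial markers summed to 157 to 192 CPM in WT EOM, 134 to 148 in mutant EOM, 360 to 393 in WT trunk and 297 to 339 in mutant trunk. In each muscle 1 of 7 was called lower, the junction gene cdh5, where 1.4% of all genes were called lower in EOM and 3.63% in trunk. Erythroid markers summed to 1060 to 2310, 729 to 1040, 369 to 487 and 296 to 486 CPM in the same order of groups, 84.3% of it from the globin gene hbaa1. The part of any of these cell types, or of eye tissue, in the levels of the proliferation genes was not tested.

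**Figure D5:**
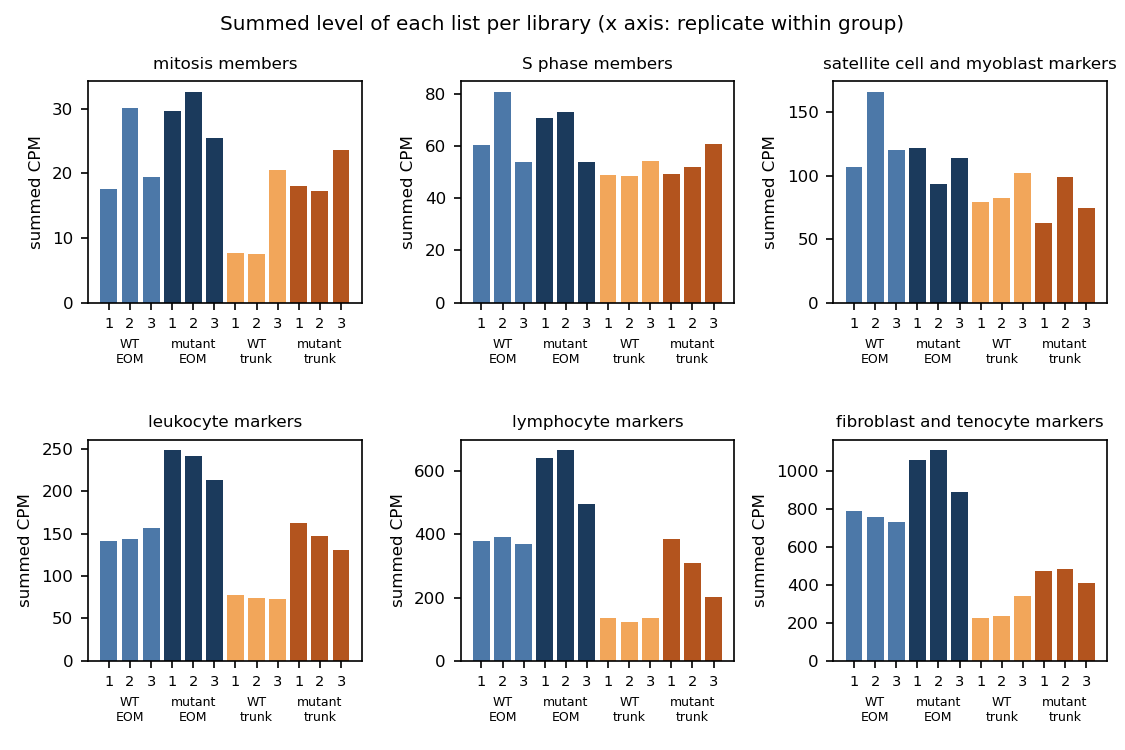
Summed CPM per library for the mitosis genes, the S phase genes (54.1% of their sum from pcna) and 4 marker lists, with bars coloured by group and replicates 1 to 3 within each. Leukocyte and fibroblast sums of every mutant library exceed those of every WT library of the same muscle, as do the lymphocyte sums, of which cd74a makes up 96.5%, whereas the mitosis sums of WT EOM replicate 2 (30.2 CPM) and WT trunk replicate 3 (20.6 CPM) lie in the mutant range and satellite cell sums overlap.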

How the data were processed

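The authors deposited, for each library, raw counts of reads per gene from stranded, poly-A selected libraries, and the sense counts were used. The submitters' processing notes name STAR, the build GRCz11 and DESeq2, with versions not given in the sources used here. Unmapped reads, multimapping reads, reads with no feature and ambiguous reads, kept as 4 tally rows of each file, were left out of totals; unmapped reads were 7.93% to 14.3%. The opposite strand held 2.77% to 3.21% of gene reads. Tests on counts used edgeR 4.0.16 under R 4.3.3 (filterByExpr, TMM factors, robust quasi-likelihood test, Benjamini-Hochberg adjustment over all genes tested, called at adjusted p under 0.05), with the libraries of the comparison for mutant and tissue effects and all 12 for the interaction. CPM used TMM-scaled totals, and a group value is the mean ± SD of 3 libraries. Scripts were tested on simulated data.

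Members were matched by symbol, birc5a through the symbol BIRC5. Members and gene lists were chosen with earlier results of these data known. By a rule written down with those earlier results known, full values were given for members called in a mutant comparison, the 3 largest other changes in each muscle, mki67, top2a, cdk1, ccnb1, pcna and mcm2, the 5 largest called tissue differences, and the called genes of the other cell cycle lists with the smallest p, up to 4 per list and comparison; of the marker lists, examples are named. mcm7, birc5a in the interaction, cdk4 in EOM and in the interaction, and the examples of the marker lists were named after their values were seen. No coordinates are given, because the gene table at hand was of another build, and no sequences were used. Alternatives were DESeq2 1.42.0, other scaling (RLE factors or library totals), no filter or a mean of at least 50 reads, a replicate block, counts of either strand, 1 fit of all 12 libraries, and each library left out.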

Additional observations from a re-analysis of the deposited data

How the results depend on the processing

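The count of members called depended on the analysis. In EOM (1 called) it was 2 with DESeq2 and 0 to 4 when 1 library was left out. In trunk (0 called) it was 3 with DESeq2, 3 with no filter on low counts, 3 with the replicate block, 1 with counts of either strand, 2 with all 12 libraries in 1 fit, and 0 to 16 when 1 library was left out. For WT EOM against WT trunk (9 called) it was 23 without scaling factors, 5 with a mean of at least 50 reads, 5 with the replicate block, 1 to 23 with 1 library left out and 16 without both WT EOM replicate 2 and WT trunk replicate 3, an alternative chosen after seeing the data. For mutant EOM against mutant trunk (12 called) it was 31 without scaling factors, 3 with all 12 libraries in 1 fit and 2 to 13 with 1 library left out. The interaction had 0 called members in all 20 alternatives. The cause of these changes was not tested. Without scaling factors the median of all genes also moved, to 0.66 in WT fish and 0.79 in mutants. Where no share of all genes called in the same fit is given above, the counts describe the fit and not the members. On library totals without TMM factors, the summed CPM of S phase genes was 79.4 in WT EOM, 86.8 in mutant EOM, 40.3 in WT trunk and 42.4 in mutant trunk (65.1, 66.0, 50.7 and 54.1 with factors), and that of mitosis genes was 38.5 in mutant EOM and 15.4 in mutant trunk (29.2 and 19.6 with factors). With factors, pcna made up 54.1% of the S phase sum. Without pcna the S phase sums were 24.0 to 37.8 CPM in WT EOM and 24.7 to 35.0 in mutant EOM. In trunk they were 18.4 to 27.5 CPM in WT and 23.8 to 31.2 in mutants.

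Values near 0 turned direction in some fits, none of them called. The change of pcna in EOM became 0.06 without scaling factors and ran from −0.16 to 0.10 in fits with 1 library left out, and in trunk it ran from −0.13 to 0.01. For the difference between muscles, fits with 1 library left out ran from −1.48 to 0.19 for cdk1, −0.79 to 0.05 for mki67, −0.08 to 0.18 for pcna, −0.08 to 0.72 for plk1, −0.94 to 0.12 for top2a and −0.80 to 0.22 for tyms, and leaving out both libraries named above gave −0.23 for plk1.

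Whether the numbers in the sample titles pair the libraries is not known. Over 18 same-number pairs, the correlation of deviations from the group means ran from −0.369 to 0.507, and 7 were over 0.1. With 3 libraries per group, such correlations cannot decide whether same-number libraries shared a fish or a batch. With few reads per gene (3 to 18 for kif20a in WT trunk), depth limits how small a change could be seen.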
